A study of Mus musculus with 10 samples.

Results

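T cell receptor gene segments are the variable (V), diversity (D), joining (J) and constant (C) pieces of the alpha, beta, gamma and delta receptor loci. They were taken as every gene row whose symbol begins with Tra, Trb, Trg or Trd and goes on with v, d, j or c and then a digit or the end of the name. This gave 260 of the 53656 gene rows in each table: 191 of the alpha locus (130 V, 60 J, 1 C), 53 of the beta locus (35 V, 2 D, 14 J, 2 C), 11 of the delta locus (6 V, 2 D, 2 J, 1 C) and 5 of the gamma locus (1 V, 4 J). The gamma V and C genes named Tcrg fall outside the pattern. Of the 260 rows, 195 had a count in some library, 124 passed the filter on low counts and were tested, and 65 had no count.

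RNA sequencing was done on SMARTA CD4 T cells, which carry a transgenic receptor for the GP61 peptide of lymphocytic choriomeningitis virus, sorted from the tumour-draining lymph node (tdLN). Naive SMARTA cells were transferred into B6 mice that were treated with cytoxan (cyclophosphamide) and bore B16-GP61, a B16 melanoma line with that peptide, and were sorted on day 11. The TOX knockout cells (KO, 6 libraries) were sorted as CD4+, Ly5.1+, Ly5.2- and low for PD1, LAG3 and CD39. The TOX wild-type cells (WT, 4 libraries) were sorted as CD4+, Ly5.1+, Ly5.2+ and high for PD1, LAG3 and CD39, so genotype and sort gate cannot be told apart. Both groups share the transgenic receptor, the host strain, the tumour and the cytoxan treatment. The labels do not give the age of the mice, how Tox was deleted, whether the SMARTA line can still rearrange its own receptor loci, or which animal a library came from, so the p-values are about the scatter among these libraries, part of which may be technical.

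A T cell makes its receptor by joining V, D and J segments of the beta locus and V and J segments of the alpha locus, and splicing then adds a constant segment to the RNA. A normal T cell population uses many V segments, whereas the cells of a receptor-transgenic mouse carry the same rearranged alpha and beta genes. The SMARTA receptor is known for V alpha 2, which the Trav14 genes encode, and V beta 8.3, which Trbv13-1 encodes. In the beta locus the Trbj1 segments lie before Trbc1 and the Trbj2 segments before Trbc2, so a rearrangement to a Trbj2 segment usually removes Trbc1 from that chromosome. The delta locus lies inside the alpha locus, and joining of an alpha V to an alpha J segment deletes it from that chromosome.

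Depth was 36028980 to 55784453 counts per KO library and 31939816 to 45481478 per WT library. Libraries stood apart in ways the groups do not explain. WT replicate 1 had counts on 14365 genes and on 104 of the 260 receptor rows, against 19101 to 19775 genes and 163 to 172 receptor rows in WT replicates 2 to 4. The KO libraries had counts on 138 to 161 receptor rows. The library names carry numbers, 1 to 3 for KO replicates 1 to 3 and WT replicate 1, and 4 to 8 for the other 6, and several results below differ between these sets. Immunoglobulin genes took 0.0835% to 0.187% of counts in KO, 0.815% in WT replicate 1 and 7.37% to 16.7% in the other WT libraries. Tox, the targeted gene, was at 15.3 to 68.0 CPM (a counts-per-million unit, scaled by edgeR's TMM factors) in KO and 170 to 357 CPM in WT, so no library went against its label.

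The results turn on a few V segments, whose ends show how alike the copies are. The lines below give the last 75 bases of the GENCODE M21 transcript of each (GRCm38, coding strand), in lower case, with capitals at bases that differ from the line of Trav14d-3-dv8 or, for the beta genes, of Trbv13-1.
Trav14d-3-dv8: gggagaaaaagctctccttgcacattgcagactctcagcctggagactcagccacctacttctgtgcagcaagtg
Trav14-3: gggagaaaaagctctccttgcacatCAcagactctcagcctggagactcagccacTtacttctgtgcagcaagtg
Trbv13-1: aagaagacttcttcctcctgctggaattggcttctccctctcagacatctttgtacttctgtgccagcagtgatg
Trbv13-2: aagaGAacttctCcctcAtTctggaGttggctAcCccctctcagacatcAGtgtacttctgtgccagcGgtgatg
Trbv13-3: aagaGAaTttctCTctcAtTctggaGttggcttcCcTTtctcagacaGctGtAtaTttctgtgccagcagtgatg
Trav14-3 (chr14:53763173-53763694, plus strand) differed from Trav14d-3-dv8 (chr14:53078452-53079045, plus strand) at 3 of these 75 bases and Trbv13-2 and Trbv13-3 differed from Trbv13-1 (chr6:41116007-41116468, plus strand) at 11 and 15. Over the aligned transcripts the other Trav14 copies were 93.2% to 96.9% identical to Trav14d-3-dv8 and shared runs of 53 to 106 bases with it, longer than the 50-base reads. Windows of 50 bases were compared among the transcripts of the receptor rows only. For Trav14d-3-dv8, 61.2% of its windows were found in no other such transcript, and for Trav14-3 43.3%. Trav14d-1, Trav14d-2, Trav14n-1 and Trav14n-2 had none of their own. For Trbv13-1 all windows (100%) were its own. Counting was run, per the file headers, without an option for reads that match several places, so the split of counts between Trav14 copies is uncertain and their sum is used below. The sum may also lack reads that match several copies, and how many was not tested.

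The receptor rows together held 7231467 counts over the 10 libraries, of which the beta locus took 53.3%, the alpha locus 45.5%, the delta locus 1.15% and the gamma locus 0.000816%. Trac took 38.4% of these counts, the Trbc genes 37.5%, the Trbv rows 15.2%, the Trav rows 6.68%, Trdc 1.04%, the Trbj rows 0.671% and the Traj rows 0.410%. The alpha rows made up 0.432%, 0.745%, 0.818%, 1.18%, 1.41% and 1.20% of all counts in KO replicates 1 to 6 and 0.716%, 0.562%, 0.298% and 0.411% in WT replicates 1 to 4. The beta rows made up 0.363%, 0.708%, 1.01%, 1.25%, 1.77% and 1.57% in KO and 0.855%, 0.624%, 0.365% and 0.587% in WT. KO replicates 3 to 6 were above every WT library for both loci, KO replicate 2 was so for the alpha locus only, and KO replicate 1 lay within the WT range for the alpha locus and below every WT library for the beta locus. The mean was 0.963 ± 0.360% in KO (SD, n = 6) and 0.497 ± 0.182% in WT (SD, n = 4) for the alpha locus, a ratio of 1.94, and 1.11 ± 0.528% against 0.608 ± 0.201% for the beta locus, a ratio of 1.83. Within library numbers 4 to 8 the ratios were 2.98 and 2.91. Against the summed counts of the CD3 genes Cd3d, Cd3e, Cd3g and Cd247, whose proteins carry the receptor's signal, the ratios over all libraries were 1.22 and 1.13. In bulk RNA, fewer cells of a type and less RNA per cell cannot be told apart.

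**Figure D1:**
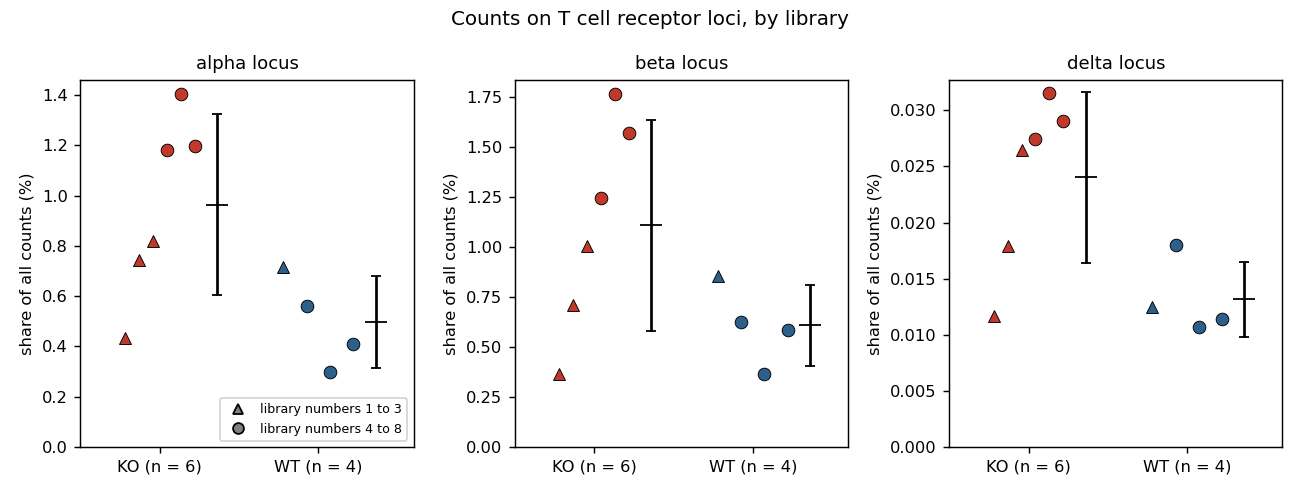
Share of all counts (%) on the alpha, beta and delta locus rows in each KO and WT library; triangles are library numbers 1 to 3, circles numbers 4 to 8, and the bars are the mean and SD of each group. The 3 KO libraries of numbers 4 to 8 sit above the 3 WT libraries of those numbers in every panel.

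The constant genes carry most of these counts. Trac, the only alpha constant gene (chr14:54220521-54224206), stood at 4525, 6833, 7148, 9096, 10822 and 9202 CPM in KO and 6855, 4383, 2422 and 3516 CPM in WT. WT replicate 1 lay above KO replicates 1 and 2, so the groups overlapped, and the log2 ratio (KO over WT, the log2 fold change of the fit) of 0.89 did not pass (SE 0.33, adjusted p = 0.19 by edgeR). It passed without WT replicate 1 (1.21, adjusted p = 0.035 by edgeR) and within library numbers 4 to 8 (1.57, adjusted p = 0.024 by edgeR). Trbc2 (chr6:41546730-41548352) stood at 2778, 4827, 6554, 7503, 10762 and 9453 CPM in KO and 5997, 3592, 2190 and 3741 CPM in WT, with a log2 ratio of 0.85 (SE 0.40, adjusted p = 0.30 by edgeR) that passed within library numbers 4 to 8 (1.62, adjusted p = 0.026 by edgeR). As for Trac, KO replicate 5 was highest and WT replicate 3 lowest, and the groups overlapped. Trbc1 (chr6:41538218-41539881) had another order, with WT replicate 1 highest: it stood at 396, 573, 740, 454, 504 and 503 CPM in KO and 1079, 540, 303 and 448 CPM in WT, with a log2 ratio of -0.17 (SE 0.34, adjusted p = 0.83 by edgeR). That sign turned to 0.30 without WT replicate 1 and to 0.25 within library numbers 4 to 8, whereas with scaling to the CD3 genes Trbc1 was called lower (-0.78, adjusted p = 0.032 by edgeR). Per kilobase of exon, mean levels were 10086 (KO) and 5607 (WT) CPM for Trbc2, 8490 and 4592 for Trac, and 706 and 791 for Trbc1.

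The balance between the beta constant genes differed by library. Trbc1 took 12.5%, 10.6%, 10.2%, 5.70%, 4.47% and 5.05% of the Trbc counts in KO and 15.2%, 13.1%, 12.1% and 10.7% in WT. The mean was 8.08 ± 3.40% (SD, n = 6) against 12.8 ± 1.90% (SD, n = 4), a difference of -4.71 percentage points (two-sided exact permutation test, p = 0.0381, 0.0571 after Benjamini-Hochberg adjustment over 3 shares). The share was lowest in KO replicates 4 to 6, and KO replicate 1 was the only KO library above a WT library. Within library numbers 4 to 8 the difference was -6.90 points and the groups did not overlap, at the smallest p that 3 against 3 libraries allow (exact permutation test, p = 0.1). Trbc1 and Trbc2 share a run of 259 identical bases. Of their 50-base windows, 58.9% and 55.99% were found in no other receptor transcript. A single 50-base read from the other windows cannot be placed by itself. Whether the other read of its pair places it was not tested. Counts per base of exon gave a difference of -4.42 points.

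Trbv13-1, the V segment of the SMARTA beta chain, held nearly all Trbv counts in every library. It stood at 955, 2144, 2886, 3213, 4873 and 4695 CPM in KO and 2168, 1353, 848 and 1699 CPM in WT. The log2 ratio was 1.04 (SE 0.44, adjusted p = 0.25 by edgeR), and WT replicate 1 lay above KO replicates 1 and 2. It passed within library numbers 4 to 8 (1.79, adjusted p = 0.026 by edgeR). As a share of Trbv counts it was 98.1%, 98.9%, 98.8%, 98.5%, 98.8% and 99.0% in KO and 98.3%, 94.1%, 94.7% and 96.0% in WT. WT replicate 1 was inside the KO range and the other 3 WT libraries were below every KO library. The mean share was 98.7 ± 0.341% (SD, n = 6) against 95.8 ± 1.84% (SD, n = 4), a difference of 2.91 points (two-sided exact permutation test, p = 0.0190, 0.0571 after adjustment over 3 shares). Counting error was smaller than these differences: in WT replicate 3, the WT library with the fewest Trbv counts (33634), the Wilson 95% interval ran from 94.4% to 94.9%. Such intervals cover counting error only, since PCR copies without molecular identifiers are not independent molecules.

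Trav14d-3-dv8, the most abundant V row of the alpha locus and a copy of the V alpha 2 genes, stood at 371, 976, 1021, 1494, 1977 and 1856 CPM in KO and 915, 624, 343 and 643 CPM in WT (log2 ratio 1.02, SE 0.45, adjusted p = 0.27 by edgeR). It passed within library numbers 4 to 8 (1.80, adjusted p = 0.023 by edgeR). It held 97.5% to 98.9% of the Trav14 counts in KO and 98.5% to 99.6% in WT. All Trav14 rows together took 81.6%, 85.9%, 87.0%, 95.8%, 96.6% and 94.7% of the Trav counts in KO and 94.1%, 94.3%, 94.1% and 94.9% in WT. KO replicates 1 to 3 were below every WT library and KO replicates 4 and 5 above, so the groups overlapped. The means were 90.3 ± 6.23% (SD, n = 6) and 94.4 ± 0.391% (SD, n = 4), a difference of -4.08 points (two-sided exact permutation test, p = 0.324, adjusted p = 0.324), which turned to 1.23 points within library numbers 4 to 8.

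**Figure D2:**
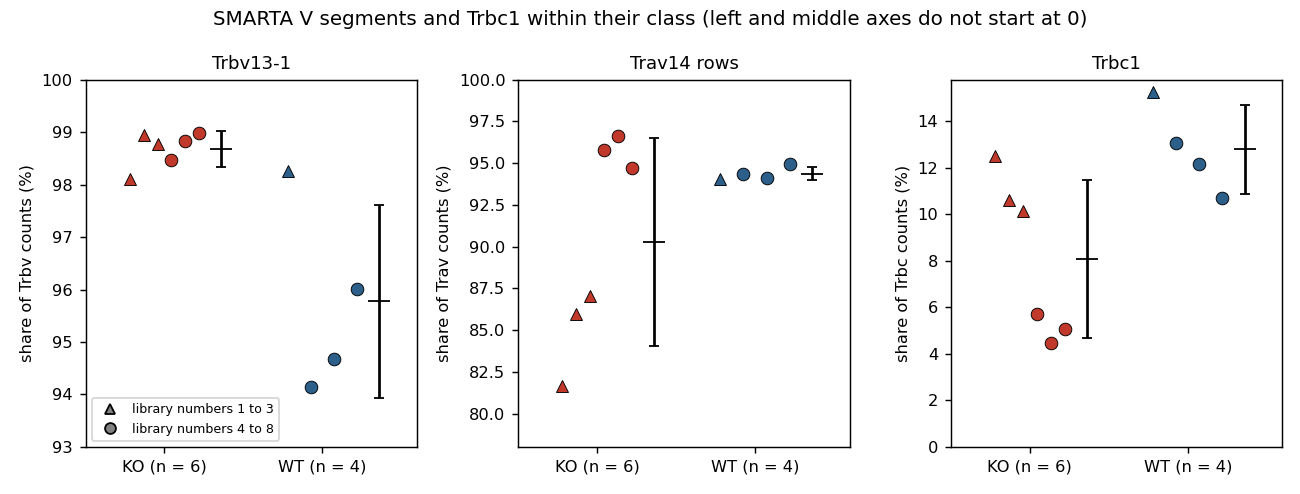
Share (%) of Trbv counts on Trbv13-1, of Trav counts on the Trav14 rows and of Trbc counts on Trbc1 in each KO and WT library; triangles are library numbers 1 to 3, circles numbers 4 to 8, and bars are the mean and SD. Trbv13-1 is lowest in WT replicates 2 to 4 (94.1% to 96.0%), the Trav14 rows are lowest in KO replicates 1 to 3 (81.6% to 87.0%) and Trbc1 is lowest in KO replicates 4 to 6 (4.47% to 5.70%).

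Few single segments passed the test across all genes. Trav14-3 and Trav4-4-dv10 were called higher in KO and Trbv3 lower, that is 2 and 1 of 124 tested receptor rows. Over all 14214 genes tested, 0.429% were called higher and 2.70% lower, 3.13% in all. At an unadjusted p under 0.05 there were 30 of the 124 receptor rows. All genes were not counted at that threshold, so it has no background here or for the Traj and Trbj rows below. The median log2 ratio was 0.76 over the 124 rows that passed the filter, with 99 above 0, and -0.12 over all genes, with 6502 above 0. With scaling to the CD3 genes the medians were 0.039, with 64 receptor rows above 0 and 60 below, and -0.93. A row can pass the filter through its higher group alone. Of all 195 rows with a count, 132 had the higher mean CPM in KO and 63 the lower. With scaling to the CD3 genes it was 87 and 108. DESeq2 called 14 receptor rows higher and 6 lower, where it called 4.31% and 7.03% of all genes. Within library numbers 4 to 8 the counts were 13 and 4, against 0.842% and 7.18% of all genes. Without WT replicate 1 edgeR called 7 higher and 3 lower of 132, against 2.92% and 7.90% of all genes.

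Trav14-3, a V alpha 2 gene, stood at 4.54, 13.5, 12.0, 18.7, 16.9 and 22.7 CPM in KO and 2.78, 2.60, 2.48 and 4.11 CPM in WT. Every KO library was above every WT library, and the log2 ratio was 2.30 (SE 0.53, adjusted p = 0.043 by edgeR). It kept its call in 2 of 10 fits that left out a library (adjusted p from 0.023 to 0.12), and its reads can be lost to or gained from other copies, as the aligned ends above show. Trav4-4-dv10, a V segment that can join to alpha or delta J segments, stood at 5.25, 9.13, 7.50, 5.96, 4.91 and 11.7 CPM in KO and 1.35, 1.63, 0.852 and 1.97 CPM in WT. The groups did not overlap (log2 ratio 2.35, SE 0.54, adjusted p = 0.042 by edgeR), and the call held in 1 of 10 such fits (adjusted p from 0.027 to 0.099).

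V segments other than the SMARTA pair were mostly higher in KO in the alpha locus and mostly lower in the beta locus over all libraries, but the alpha order depended on the libraries and the scaling. The 121 Trav rows outside Trav14 included 72 with a count, of which 55 had a higher mean CPM in KO and 17 a lower one. Within library numbers 4 to 8 it was 37 higher and 33 lower, with scaling to the CD3 genes 42 and 30, and with both 29 and 41. The 38 rows that passed the filter, which a row can pass through its higher group alone, had log2 ratios from 0.03 to 3.10, so their signs do not stand for all rows. For 10 of them every KO library was above every WT library. Over all genes tested, 2.59% had KO above WT in this way and 6.31% had KO below WT. Counts of all 121 Trav rows outside Trav14 summed to 73.7, 151, 151, 73.3, 74.99 and 112 CPM without TMM scaling in KO. In WT they summed to 52.9, 41.6, 22.8 and 33.8 CPM, so the sums did not overlap. Scaling to the CD3 genes shifts the median log2 ratio of all genes from -0.12 to -0.93.

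Among the most abundant Trav rows outside Trav14, Trav17 and Trav21-dv12 had every KO library above every WT library, and Trav3-3 and Trav9-4 did not. Trav17 stood at 12.3, 27.9, 30.4, 10.2, 14.1 and 15.0 CPM in KO and 5.65, 2.28, 1.70 and 4.84 CPM in WT (log2 ratio 2.34, SE 0.56, adjusted p = 0.053 by edgeR). Trav21-dv12, shared between the alpha and delta loci, stood at 7.63, 11.6, 12.3, 8.88, 10.0 and 10.4 CPM in KO and 5.34, 2.54, 1.89 and 2.45 CPM in WT (1.73, SE 0.48, adjusted p = 0.087 by edgeR). For both, the groups did not overlap, but neither passed. Both passed without WT replicate 1 (adjusted p = 0.021 and 0.013 by edgeR) and within library numbers 4 to 8 (adjusted p = 0.0499875 and 0.027 by edgeR). Trav3-3 and Trav9-4 had log2 ratios of 1.31 and 1.20 (SE 0.69 and 0.78, adjusted p = 0.36 and 0.45 by edgeR), and in both KO replicates 1 to 3 and WT replicate 1 were higher than the other libraries. Trav9-4 was at 9.81, 11.6 and 11.5 CPM in those KO libraries and 9.16 in that WT library, against 2.99 to 6.70 CPM in KO replicates 4 to 6 and 0.772 to 1.91 in WT replicates 2 to 4.

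Of the 34 Trbv rows other than Trbv13-1, 23 had a count, and the mean CPM was lower in KO for 20 and higher for 3. It was lower for 20 also without WT replicate 1, for 19 within library numbers 4 to 8 and for 22 with scaling to the CD3 genes. The 16 tested had a median log2 ratio of -2.69. A row can pass the filter through its higher group alone, here WT, so that median does not stand for all rows. For 7 of the 16 (Trbv3, Trbv14, Trbv15, Trbv17, Trbv19, Trbv20 and Trbv31) every KO library was below every WT library. The same filter favours such rows. Over all genes tested, 6.31% had KO below WT in this way. Trbv3 stood at 0.312, 0.382, 0.277, 0.254, 0.0220 and 0.699 CPM in KO and 1.72, 6.82, 3.86 and 4.90 CPM in WT (log2 ratio -3.72, SE 0.83, adjusted p = 0.037 by edgeR), and its call held in 4 of 10 fits that left out a library (adjusted p from 0.015 to 0.13). WT replicate 1 was the lowest WT library for Trbv3. Trbv1 and Trbv16 had more counts than Trbv3 over all libraries (1005 and 850 against 715). Their log2 ratios were -2.29 and -2.52 (SE 1.59 and 1.24, adjusted p = 0.48 and 0.32 by edgeR). Trbv16 was at 7.13, 3.91 and 6.99 CPM in WT replicates 2 to 4 and at 0 in WT replicate 1. A count of 0 there allows up to 0.0660 CPM without TMM scaling.

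The 3 most abundant rows after Trbv13-1 did not share this order. Trbv12-2 stood at 3.23, 8.69, 13.2, 23.2, 27.2 and 22.6 CPM in KO and 12.2, 13.4, 7.59 and 14.6 in WT, with a log2 ratio of 0.45 (SE 0.57, adjusted p = 0.72 by edgeR) that turned to -0.25 with scaling to the CD3 genes. Trbv13-3 had 0.35 (SE 0.45, adjusted p = 0.73 by edgeR), which turned to -0.32 with that scaling, and Trbv13-2 had -0.19 (SE 0.49, adjusted p = 0.87 by edgeR), which turned to 0.24 within library numbers 4 to 8. Like Trbv13-1, these rows were highest in KO replicates 4 to 6 among the KO libraries. With those 3 rows set aside, a choice made after their values were seen, the other Trbv rows took 0.574%, 0.160%, 0.291%, 0.0972%, 0.0290% and 0.103% of Trbv counts in KO and 0.447%, 3.40%, 2.88% and 2.20% in WT. The share was high in WT replicates 2 to 4 only, and WT replicate 1 lay inside the KO range.

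**Figure D3:**
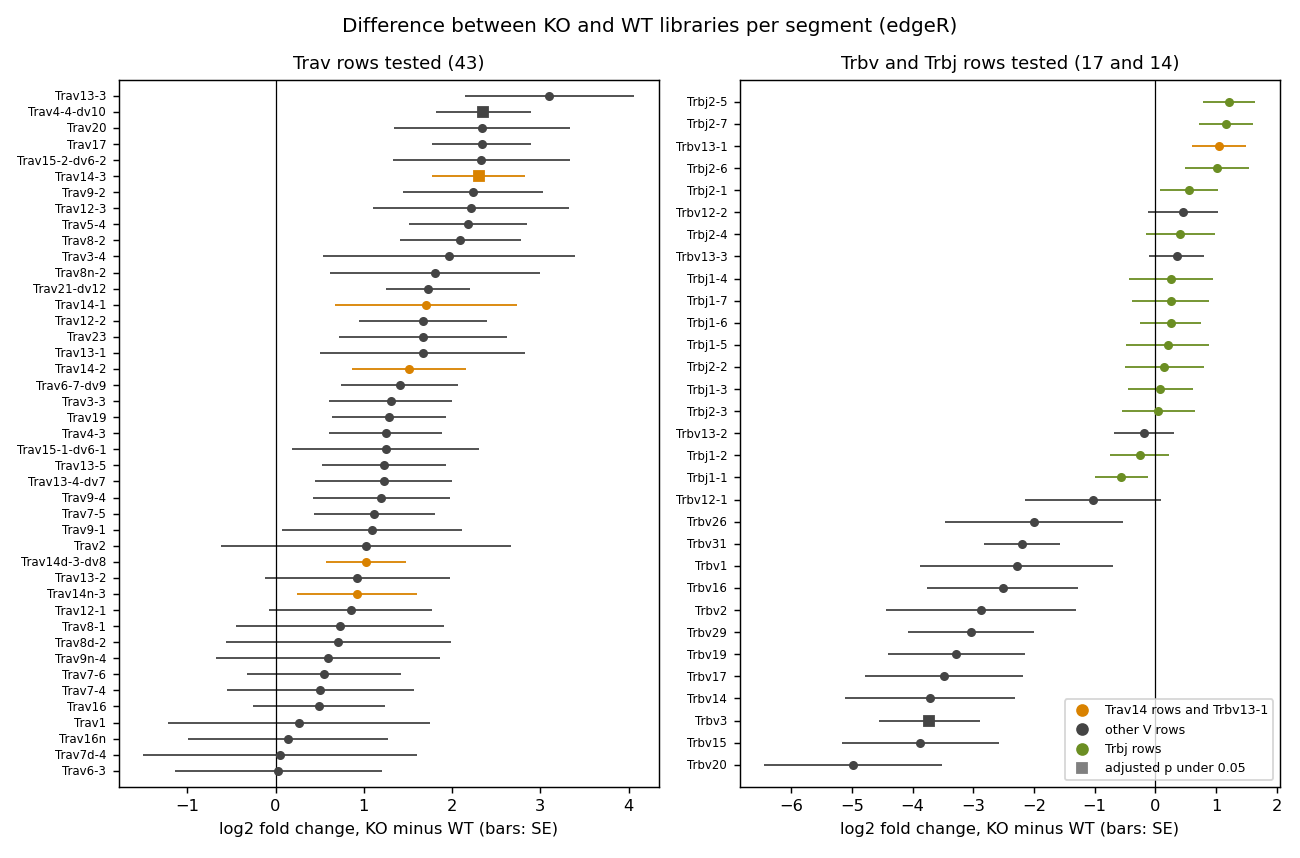
Log2 ratio (KO over WT, the fold change fitted by edgeR; bars are the SE) of each tested Trav row (left) and each tested Trbv and Trbj row (right); orange marks Trav14 rows and Trbv13-1, green the Trbj rows, and squares the rows with an adjusted p under 0.05. The Trbv rows reach down to -4.98 for Trbv20. Only rows that passed the filter are drawn, and a row high in 1 group can pass through that group alone: among all rows with a count, 55 of 72 Trav rows outside Trav14 had the higher mean in KO and 20 of 23 Trbv rows other than Trbv13-1 the lower one.

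Libraries also differed in markers of other cells. The B cell and myeloid markers were lower in KO. The plasma cell and dendritic cell sums overlapped between the groups. The NK cell markers were mixed, with a higher sum in KO, and the CD8 markers overlapped between the groups. The 5 B cell markers (Ms4a1, Cd79a, Cd79b, Ighm, Pax5) summed to 919.6 to 1285 CPM in KO, 4183 in WT replicate 1 and 9287 to 14995 in WT replicates 2 to 4, and 4 of the 5 were called lower in KO. The 4 myeloid markers (Lyz2, Csf1r, Itgam, Cd68) summed to 3.09 to 158 CPM in KO and 1021 to 6469 in WT, with 2 of 4 called lower. Over all genes tested, 2.70% were called lower. The 4 plasma cell markers (Jchain, Sdc1, Prdm1, Xbp1) summed to 59.0 to 720 CPM in KO and 633 to 4126 in WT, with 1 called lower. The 4 dendritic cell markers (Flt3, Zbtb46, Itgax, Siglech) summed to 0.794 to 4.97 CPM in KO and 2.80 to 59.5 in WT, with 0 called. Cd8a and Cd8b1, the coreceptor genes of CD8 T cells, summed to 37.8 to 79.5 CPM in KO and 71.5 to 118 in WT, with log2 ratios of -2.17 and -0.47 (adjusted p = 0.46 and 0.45 by edgeR), and Cd8a was at 0 in KO replicates 1 and 5. The 3 NK cell markers (Ncr1, Klrb1c, Eomes) summed to 168 to 274 CPM in KO and 14.9 to 66.2 in WT. Klrb1c was called higher and was the only 1 of the 3 with a log2 ratio above 0. Their median log2 ratio was -3.16. The part of these cells in the segment counts was not tested.

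J segments are short, and reads on them come from joined receptor RNA or from unjoined transcripts of the locus, which the counts do not separate. The most abundant ones are printed here to show how they differ; capitals mark the codons TTN, GGN, NNN and GGN in a row, a DNA approximation of the phenylalanine and glycine pattern that most J segments encode.
Traj2: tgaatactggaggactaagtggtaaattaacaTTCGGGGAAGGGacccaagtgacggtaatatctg
Traj3: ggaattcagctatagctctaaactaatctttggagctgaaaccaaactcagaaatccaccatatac
Traj15: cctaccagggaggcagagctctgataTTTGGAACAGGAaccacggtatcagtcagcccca
Traj58: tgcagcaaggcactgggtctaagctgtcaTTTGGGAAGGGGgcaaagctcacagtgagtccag
Trbj2-7: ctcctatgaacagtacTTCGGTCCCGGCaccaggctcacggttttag
Trbj2-5: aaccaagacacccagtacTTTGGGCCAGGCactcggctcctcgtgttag
Trbj1-1: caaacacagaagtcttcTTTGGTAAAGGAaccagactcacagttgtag
The motif was found on the coding strand of 46 of 60 Traj rows (76.7%), 11 of 14 Trbj rows (78.6%), 2 of 2 Trdj rows and 0 of 4 Trgj rows, and on the opposite strand of 0 of the 80. For comparison it was found in 6 of 170 V transcripts (3.53%), which are longer, on the coding strand and in 6 on the opposite strand. Traj3, among the most abundant Traj rows, does not hold it.

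Traj2 and Traj3 lie next to each other near Trac and had the most Traj counts over the 10 libraries together. In KO replicate 1 Traj15 was above both (21.8% of Traj counts, against 11.2% and 11.9%), and in KO replicate 3 Traj58 (14.4%) was above Traj3 (12.1%). Traj2 (chr14:54217836-54217901) stood at 3.23, 11.0, 20.8, 36.8, 58.1 and 46.2 CPM in KO and 7.27, 19.996, 9.26 and 7.72 CPM in WT. KO replicates 4 to 6 were above every WT library, KO replicate 1 was below them all, and the log2 ratio was 1.41 (SE 0.73, adjusted p = 0.34 by edgeR). Traj2 and Traj3 together took 23.0%, 37.3%, 38.5%, 57.3%, 65.3% and 62.3% of Traj counts in KO and 40.4%, 45.6%, 43.4% and 41.1% in WT. The WT libraries lay between the KO libraries of numbers 1 to 3 and those of numbers 4 to 8. Traj58 (log2 ratio 1.22, SE 0.61, adjusted p = 0.33 by edgeR) had the other order: its share of Traj counts was 8.62%, 13.5% and 14.4% in KO replicates 1 to 3 and 12.2% in WT replicate 1, against 3.72% to 5.76% in the remaining 6 libraries. Traj3, Traj15 and Traj26 had log2 ratios of 1.15, 1.25 and 0.56 (adjusted p = 0.37, 0.24 and 0.62 by edgeR). Of 60 Traj rows 59 had a count, 40 of them with the higher mean CPM in KO and 19 with the lower, which turned to 24 and 35 with scaling to the CD3 genes. Of the 37 tested, with a median of 0.77, edgeR called 0 in either direction, 2 had an unadjusted p under 0.05 and DESeq2 called 1. In library numbers 4 to 8 edgeR called Traj2 (2.01), Traj3 (1.96) and Traj15 (2.10) higher, with adjusted p = 0.045, 0.038 and 0.028.

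The Trbj2 cluster took a larger share of the Trbj counts in KO. The Trbj2 rows took 71.7%, 60.4%, 62.1%, 61.9%, 71.3% and 71.8% of Trbj counts in KO and 53.0%, 40.7%, 49.6% and 42.0% in WT. Every KO library was above every WT library, with means of 66.5 ± 5.60% (SD, n = 6) and 46.3 ± 5.94% (SD, n = 4). This share was not among the 3 tested and has no p-value. Trbj2-7 stood at 15.5, 16.8, 31.9, 42.5, 55.2 and 44.4 CPM in KO and 17.3, 19.3, 12.4 and 12.2 in WT (log2 ratio 1.16, SE 0.45, adjusted p = 0.21 by edgeR). Trbj2-5 had a log2 ratio of 1.21 (SE 0.43, adjusted p = 0.17 by edgeR). Trbj1-1, the most abundant Trbj1 segment, stood at 5.96, 12.0, 19.98, 21.8, 20.8 and 16.9 CPM in KO and 33.1, 27.6, 13.6 and 21.6 CPM in WT, with a log2 ratio of -0.56 (SE 0.44, adjusted p = 0.54 by edgeR). Its share of Trbj counts was 8.72% to 15.0% in KO and 20.4% to 31.3% in WT, again without overlap. Trbj1-2 and Trbj2-1 had -0.26 and 0.55 (adjusted p = 0.81 and 0.59 by edgeR). Over all libraries 7 of 7 Trbj2 rows and 5 of 7 Trbj1 rows had the higher mean CPM in KO, Trbj1-1 and Trbj1-2 being the exceptions. Without WT replicate 1 it was 7 and 1, within library numbers 4 to 8 it was 7 and 6, and with scaling to the CD3 genes it was 3 and 0. Over all libraries 0 of the 14 Trbj rows were called by edgeR, 2 had an unadjusted p under 0.05 and DESeq2 called 2 higher. Within library numbers 4 to 8 edgeR called Trbj2-5 (1.90) and Trbj2-7 (1.76) higher, both with adjusted p = 0.026. Trbc1 is the constant gene of the Trbj1 cluster. Within library numbers 4 to 8, KO libraries had 61.9% to 71.8% Trbj2 and 4.47% to 5.70% Trbc1, and WT libraries 40.7% to 49.6% and 10.7% to 13.1%. The shares did not run opposite in library numbers 1 to 3: KO replicate 1 had 71.7% Trbj2 with the highest Trbc1 share in KO (12.5%), and WT replicate 1 had the highest share of both in WT (53.0% and 15.2%).

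**Figure D4:**
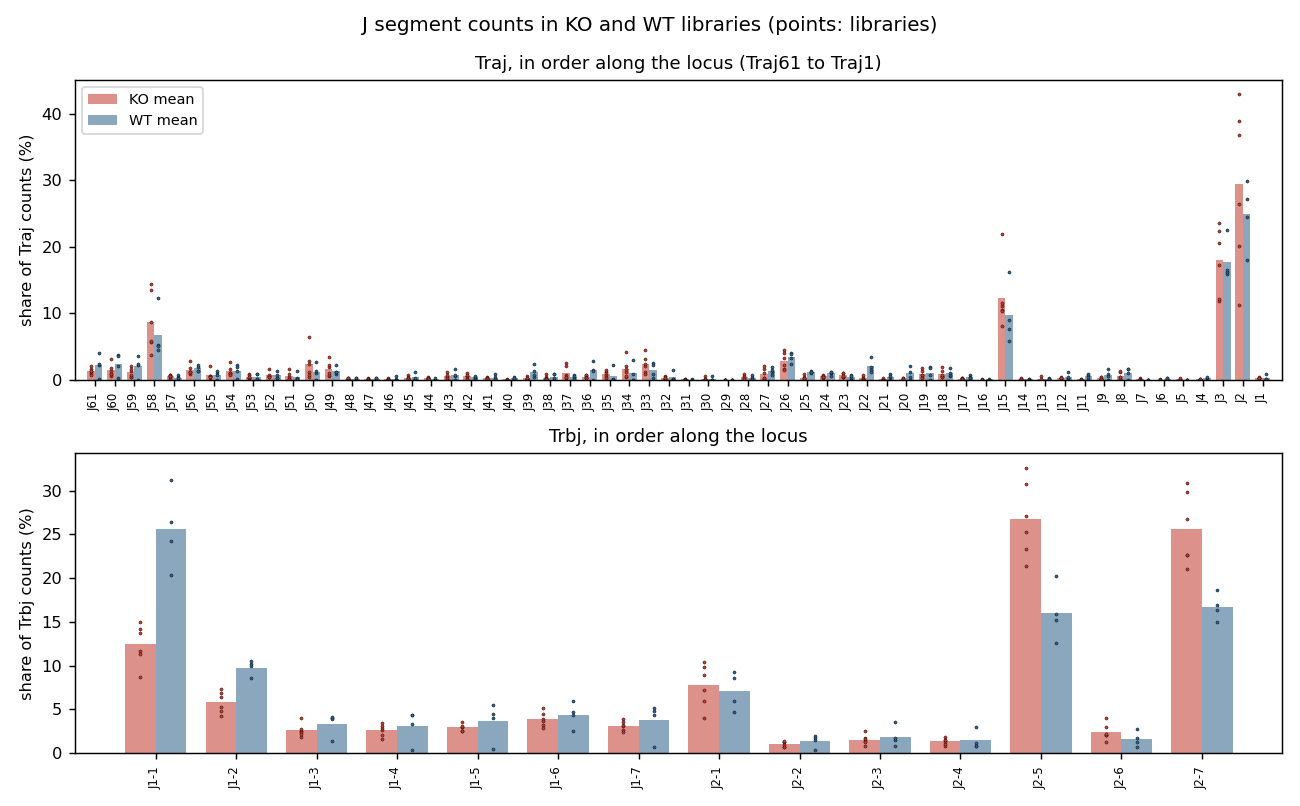
Share (%) of Traj counts on each Traj segment and of Trbj counts on each Trbj segment, in the order of the locus; bars are the KO and WT means and points the libraries. Traj2 and Traj3 are the highest Traj rows, and Trbj2-5 and Trbj2-7 are higher in KO (means 26.7% and 25.6%) than in WT (16.01% and 16.7%) while Trbj1-1 is lower (12.4% against 25.6%).

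The D segments of the beta locus are only 12 and 14 bases long. Trbd1 and Trbd2 had log2 ratios of 0.27 and 0.70 (SE 0.50 and 0.82, adjusted p = 0.81 and 0.70 by edgeR), with 2.84 to 7.85 and 0.482 to 4.36 CPM in KO and 2.80 to 6.96 and 0.399 to 2.39 CPM in WT. The sign of Trbd1 turned to -0.42 with scaling to the CD3 genes.

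Trdc, the delta constant gene (chr14:54142851-54148868), held 86.7% to 92.9% of the counts on delta rows. It stood at 122, 167, 244, 227, 265 and 251 CPM in KO and 121, 152, 92.2 and 106 CPM in WT. Only KO replicate 1 lay below a WT library, WT replicate 2, and the log2 ratio was 0.85 (SE 0.28, adjusted p = 0.15 by edgeR). Per kilobase of exon its mean came to 54.97 (KO) and 30.5 (WT) CPM, far below Trac. It overlaps Trdv5 on the other strand by 207 bases (chr14:54148662-54148868), and no strand option stands in the counting commands, so reads within that stretch cannot be told apart. Trdv5 had 491 counts in all, against 75020 for Trdc. Trdc passed within library numbers 4 to 8 (1.15, adjusted p = 0.048 by edgeR). Trdv2-2, the delta V row with the most counts, stood at 5.76, 10.2, 13.3, 7.82, 7.75 and 7.64 CPM in KO and 4.98, 3.57, 3.22 and 3.55 CPM in WT, without overlap (log2 ratio 1.19, SE 0.44, adjusted p = 0.20 by edgeR). The 5 gamma rows of the pattern held 59 counts in all. Trgv2 had 36 of them, 0 in every KO library and in WT replicate 1 and 26, 2 and 8 in WT replicates 2 to 4. The gamma constant gene Tcrg-C1, outside the pattern, had 252, 1050, 0, 45, 1219 and 479 counts in KO and 930, 68, 770 and 302 in WT, which varied as much within a group as between groups. Of the other gamma delta T cell markers, Sox13 stood at 0.0185 to 20.7 CPM in KO and 0 to 1.04 in WT (log2 ratio 4.10, adjusted p = 0.21 by edgeR), and Blk, a kinase that B cells also make, at 6.61 to 14.8 CPM in KO and 94.4 to 447 in WT (-4.86, adjusted p = 0.00093 by edgeR). Their part in the gamma and delta rows was not tested.

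The receptor's partner chains were measured beside the segments. Cd3e, Cd3g, Cd247 and Cd3d had log2 ratios of 0.72, 0.68, 0.71 and 0.49 and Cd4, the coreceptor, 0.11, and none of these 5 was called (adjusted p = 0.30, 0.22, 0.20, 0.53 and 0.91 by edgeR). All 4 CD3 genes were measured relative to a total that the receptor rows share, and with scaling to their own sum Cd3d and Cd3g turned to -0.17 and -0.09. Cd4 ran from 876 to 1828 CPM in KO, was at 425 CPM in WT replicate 1 and ran from 1337 to 1657 CPM in WT replicates 2 to 4. Rag1, Rag2 and Ptcra, which developing T cells use while they make their receptor, had 0 counts in all 10 libraries. That allows up to 0.0538 to 0.0939 CPM in a library, without TMM scaling. Dntt, which adds bases at the joints, had 81 and 74 counts in KO replicates 5 and 6, 82, 56 and 137 in WT replicates 2 to 4, and 0 elsewhere (log2 ratio -1.73, SE 1.98, adjusted p = 0.69 by edgeR).

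Many Trav rows without a count have near-identical copies, and the Trbv rows without one do not. Of the 130 Trav rows 52 had no count, and 45 of these carry the d or n of the duplicated part of the locus in their names. Among the 51 empty Trav rows that matched a transcript by name, 36 had no 50-base window of their own, and the median share of such windows was 0%, against 55.8% for the 77 matched Trav rows with a count. The other 15 empty Trav rows had windows of their own. All 11 empty Trbv rows are annotated as pseudogenes in GENCODE M21, and their median share of such windows was 100%. WT replicate 1 had 0 counts on 50 rows that had counts in WT replicates 2, 3 and 4, of which 24 were Trav, 17 Traj, 8 Trbv and 0 Trbj.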

How the data were processed

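Per the labels' protocols, RNA of cells sorted into Trizol LS was amplified with a SMART-seq v4 kit (12 cycles), and libraries (8 PCR cycles) were read as 50-base pairs. The deposited values are raw counts per gene, one table per library, for which the authors ran featureCounts 1.6.2 with GENCODE M17 (GRCm38.p6), per the file headers. The submitters' processing notes also name FastQC and STAR, with no version. No strand or multi-mapping option stands in the headers' commands.

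Counts were tested with edgeR 4.0.16 (R 4.3.3; TMM scaling, filterByExpr, quasi-likelihood test with KO against WT as the only term, Benjamini-Hochberg over 14214 genes, threshold 0.05). Log2 ratios are the fitted fold changes, KO minus WT, each with an SE derived from its F statistic. CPM values use TMM-scaled totals and shares use unscaled counts. The shares of Trbv13-1, Trav14 rows and Trbc1 were compared by two-sided exact permutation tests (smallest p for 6 against 4 libraries, 0.009524). No pair of libraries agreed within sampling noise. The test was checked on simulated data. Sequences and 50-base windows are from GENCODE M21 transcripts (GRCm38), which matched 258 of 260 rows by name. Each window was compared with the transcripts of these 258 rows only.

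Named rows were the constant genes, Trbv13-1, Trav14 and Trbd rows, the 5 next most abundant Trav and Trbv rows and 5 most abundant Traj and Trbj rows, the top gamma and delta V rows, called rows, and fixed lists of receptor complex, CD8 and recombination genes. Members and lists were chosen with earlier results of these data known. Rows named because their groups do not overlap were chosen after their values were seen. Alternatives were other scaling, filters, DESeq2 1.42.0, limma-voom (limma 3.58.1), other denominators, a replicate block, library-number sets and leaving out each library. Directions over all rows with a count, under 3 scalings and 3 sets of libraries, were added after the data were seen. One gene of the B cell marker list is not reported here and was left out of that list's sum and counts.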

Additional observations from a re-analysis of the deposited data

Results flagged for a closer look

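In 5 of 110 groups of libraries tested for a library far from the others, 1 library stood apart. For normally distributed values the rule flags about 1 in 20 groups by chance. The 110 include groups at 0 in every library, which cannot be flagged, so the 5 are not set against that rate. Trbd2 was at 4.36 CPM in KO replicate 3, with the next KO library at 1.67 CPM. Trbv1 was at 4.28 CPM in KO replicate 3, with the next at 1.53 CPM. Trav9-4 was at 9.16 CPM in WT replicate 1, with the next WT library at 1.91 CPM. Traj2 was at 19.996 CPM in WT replicate 2, with the next at 9.26 CPM. Trav14d-1, which has no 50-base window of its own, was at 0.0212 CPM in KO replicate 2, which is 1 count, and at 0 in the other KO libraries.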

How the results depend on the processing

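Calls of single receptor rows depended on the processing (2 higher and 1 lower with edgeR). Higher and lower calls numbered 0 and 6 with scaling to the CD3 genes (0.127% and 11.6% of all genes), 0 and 0 without a filter (0.152% and 1.39%), 14 and 6 with DESeq2, 3 and 5 with limma-voom (1.44% and 4.78%), 1 and 0 without immunoglobulin genes (0.333% and 1.57%), 3 and 0 with a term for library numbers (0.816% and 2.78%), 13 and 4 within numbers 4 to 8, and 0 to 7 and 0 to 3 when a library was left out (7 and 3 without WT replicate 1). They stayed at 2 and 1 with DESeq2 size factors and with a stricter filter. Replicate numbers did not pair the libraries (correlations of deviations 0.29, -0.25, -0.22 and 0.30). KO and WT also share library numbers 2 (KO replicate 2, WT replicate 1) and 6 (KO replicate 5, WT replicate 3). The labels do not say what these mark. Their correlations were 0.32 and 0.13, and a fit with these 2 pairs was not run. With replicates 1 to 4 the replicate block left 0 and 0 calls, against 0 and 1 without it. Under the replicate block the shares differed by 2.80 (Trbv13-1), -6.77 (Trav14 rows) and -3.06 points (Trbc1), each with adjusted p = 0.25 by an exact sign-flip test, whose smallest p is 0.125.

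With libraries left out, the Trbv13-1 share differed by 2.36 to 3.74 points, the Trav14 share by -5.35 to -2.35 and the Trbc1 share by -5.60 to -3.90. Without KO replicate 1 the Trbv13-1 and Trbc1 differences (3.03 and -5.60) passed (exact permutation test, adjusted p = 0.0238). The Trav14 difference reversed to 1.23 within numbers 4 to 8 and to 0.159 as a share of the alpha locus. Log2 ratios of locus shares were 0.95 (alpha), 0.87 (beta), 0.87 (delta) and -3.06 (gamma). They moved to 0.29 (alpha), 0.17 (beta) and 0.096 (delta) over CD3 counts. Within numbers 4 to 8 they were 1.57 (alpha), 1.54 (beta) and 1.14 (delta). For gamma they ran from -4.60 to -2.11 with libraries left out, on 59 counts. A gamma constant share was not run, since the pattern holds no such row.

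Reversed log2 fold changes of rows that had not passed were, with CD3 scaling, Trbd1 -0.42, Trbv12-2 -0.25, Trbv13-3 -0.32, Traj26 -0.22, Trbj2-1 -0.17, Cd3d -0.17, Cd3g -0.087 and Cd4 -0.79. Within numbers 4 to 8 they were Trbc1 0.25, Trbv13-2 0.24 and Trbj1-2 0.19. With libraries left out, Trbc1 ran from -0.38 to 0.30 (above 0 without KO replicate 1, 0.013, or WT replicate 1), Trbv13-2 from -0.34 to 0.092 (above 0 without KO replicate 1 or 2 or WT replicate 2) and Cd4 from -0.17 (without WT replicate 1) to 0.33. Cd4 was at -0.079 with replicates 1 to 4 and no block, and Trbv12-2 at -0.25 with the replicate block. The causes were not tested, save that CD3 scaling shifts all genes and leave-outs test fewer libraries.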
